A study of Rattus norvegicus with 8 samples.

Results

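The 7 miRNAs described here are rno-miR-17-5p, rno-miR-18a, rno-miR-19a, rno-miR-19b, rno-miR-20a and rno-miR-92a of the miR-17-92 cluster, and rno-miR-20b-5p of a related cluster on the X chromosome. They were chosen by name, as miRNAs known for their part in cell proliferation, out of the 677 rat miRNAs on the array, and every probe of each was read. The species prefix is left out below, save where a miRNA's values are given first. Rat cardiomyocytes were profiled by hybridising their total RNA, labelled with Cy3, on 8 one-colour arrays, 4 for cells of postnatal day 0 (P0) and 4 for cells of postnatal day 10 (P10). The cells came from male or female animals, and the labels say that cells of the older age divided less than those of the younger. The sample labels name the younger age P0 while the design text of the series gives day 1, and P0 is used throughout. Strain, genotype and treatment are not given in the sources used here, nor do they tell whether each replicate is an animal or culture of its own. The p-values therefore reflect the spread among these arrays alone, and that spread could be technical.

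The miR-17-92 cluster is a polycistron, in which neighbouring hairpins are cut from 1 primary transcript into several mature miRNAs. Each mature miRNA finds its target mRNAs mainly through its seed, so members of 1 seed group share many targets while groups of the same cluster differ. In mice, a gain of the cluster in heart muscle cells raised their division after birth, and in tumours the cluster is known as an oncogene that MYC switches on. Among known targets are the cell cycle inhibitor p21 for the miR-17/20 seed group and integrin alpha 5 for miR-92a.

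The mature sequences show why the 7 miRNAs were read as 4 groups. They are written 5′ to 3′ from RefSeq (GRCr8), and the capitals mark the seed, bases 2 to 8.
miR-17-5p: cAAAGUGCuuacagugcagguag
miR-20a: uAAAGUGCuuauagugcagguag
miR-20b-5p: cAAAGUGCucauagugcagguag
miR-18a: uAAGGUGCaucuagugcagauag
miR-19a: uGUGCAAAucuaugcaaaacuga
miR-19b: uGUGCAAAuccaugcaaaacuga
miR-92a: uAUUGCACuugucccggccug
The first 3 share 1 seed, miR-18a has a seed of its own that differs from theirs at 1 base (A4G against miR-17-5p, counted from the 5′ end), the miR-19 pair shares another, and miR-92a has the last. Outside the seed, miR-17-5p differs from miR-20a by C1U and C12U and from miR-20b-5p by U10C and C12U, and miR-19a differs from miR-19b by U11C alone. All 7 array names matched a RefSeq entry, 5 of them under a newer name (miR-18a-5p, miR-19a-3p, miR-19b-3p, miR-20a-5p and miR-92a-3p).

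In GRCr8 the 6 hairpins of the miR-17-92 cluster lie within 785 bases of chromosome 15, at chr15:98587848-98588632 on the plus strand. A second run of 5 hairpins covers 871 bases of the X chromosome, at chrX:137342777-137343647 on the minus strand. miR-18a (chr15:98588000-98588022), miR-19a (chr15:98588179-98588201) and miR-20a (chr15:98588318-98588340) come from chromosome 15 alone, and miR-20b-5p (chrX:137343239-137343261) from the X chromosome alone. The mature sequences of miR-17-5p, miR-19b and miR-92a are encoded in both clusters, so their signal cannot be assigned to either one.

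The array reads each miRNA with 2 probes that pair with it from its 3′ end inwards. The probes used for the levels below are shown because they limit how far relatives can be told apart. The capitals mark the bases that face a position at which the nearest relatives differ.
miR-17-5p probe: ctacctgcactGtAag
miR-20a probe: ctacctgcactAtAagcac
miR-20b-5p probe: ctacctgcactAtGagcact
miR-19a probe: tcagttttgcatAgatttgca
miR-19b probe: tcagttttgcatGgatttgc
The miR-17-5p probe has 1 mismatch to miR-20a and 2 to miR-20b-5p, and each miR-19 probe has 1 mismatch to the other miR-19. Binding of relatives to each other's probes was not tested.

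The arrays differed in brightness and fell into sets. The 75th percentile signal used for scaling was 116 on P0 replicate 1 and between 580 and 1326 on the other 7 arrays, and 73 miRNAs were detected on that array against 157 to 187 on the others. P10 replicates 1 and 2 were nearly the same array, with a standard deviation (SD) of their log2 ratio of 0.09 over the 111 probes detected on all arrays, 1.39 times what the spread between spots gives. P10 replicates 3 and 4 gave an SD of 0.18, 3.02 times the spot noise, while an array of the first pair against an array of the second gave 0.84 to 0.90. No pair lay within spot noise, and all 8 arrays were kept as samples. Spot noise is a spread within 1 array, so it cannot tell whether a pair came from 1 RNA sample. The differences and ratios below are also given without P0 replicate 1 and without either P10 pair. The 8 arrays shared 1 slide and were scanned together, P0 in the upper row of the slide and P10 in the lower, so row and age cannot be told apart. Of the 6 heart muscle miRNAs, miR-1, miR-133a and miR-133b were detected on all 8 arrays, miR-499 on 3 P0 and 4 P10 arrays, miR-208 on 1 and 4, and miR-208b-3p on 2 and 2.

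None of the 7 miRNAs differed between P0 and P10 beyond the spread between arrays, although the mean was higher at P10 for each of them. Levels are log2 of the processed signal relative to the array's own 75th percentile, so 0 is a probe as bright as that percentile. A miRNA was called when its Benjamini-Hochberg adjusted p in a limma fit over all 157 tested miRNAs was below 0.05. By this rule 0 of the 7 were called, in either direction, and 0 of the 7 had an unadjusted p below 0.05, against 8.92% of all tested miRNAs called and 28.7% with such an unadjusted p. The median difference (P10 minus P0) of the 7 was 0.40, against 0.03 over all tested miRNAs (0.018 against -0.25 with normexp background correction, where 4 of the 7 were above 0), and 51.6% of the tested miRNAs had a difference above 0. The 4 P0 and the 4 P10 values overlapped for all 7, while they did not overlap for 26.1% of the tested miRNAs. In RNA of whole cell preparations, fewer cells of a type and less RNA per cell cannot be told apart.

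**Figure D1:**
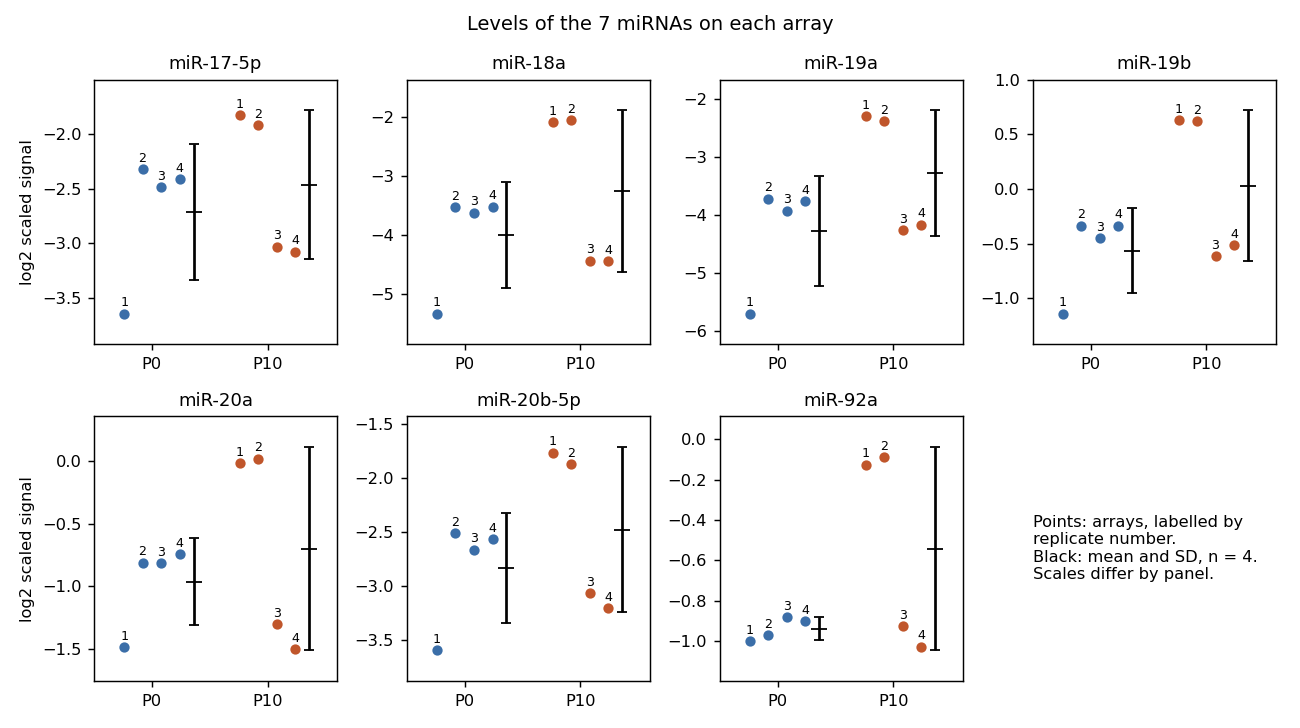
Log2 scaled signal (y axis, scale differs by panel) of each of the 7 miRNAs on the P0 and P10 arrays; points are arrays labelled by replicate number, and the black mark is the mean with its SD (n = 4). P10 replicates 1 and 2 lie above every P0 array in all 7 panels, and P0 replicate 1 is the lowest array in 5 panels.

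In the miR-17/20 seed group the differences were the smallest of the 4 groups with the main processing. With total signal per miRNA this order did not hold. miR-17-5p then differed by 0.75, miR-20a by 0.20 and miR-20b-5p by 0.91, against 0.18 for miR-92a. rno-miR-17-5p measured -3.64, -2.33, -2.49 and -2.41 on P0 replicates 1 to 4 and -1.83, -1.92, -3.03 and -3.07 on P10 replicates 1 to 4. P10 values thus lay on both sides of the P0 replicates 2 to 4, and the ages overlapped. Its mean was -2.72 ± 0.62 (SD, n = 4) at P0 and -2.47 ± 0.68 (SD, n = 4) at P10, a difference of 0.25 ± 0.42 (SE) with a limma adjusted p of 0.697. rno-miR-20a measured -1.49, -0.81, -0.82 and -0.74 at P0 and -0.02, 0.02, -1.30 and -1.50 at P10. The P0 replicates 2 to 4 were within 0.07 of each other, while the P10 arrays spanned 1.52. Its difference was 0.26 ± 0.41 (SE), with a limma adjusted p of 0.685. rno-miR-20b-5p, the only one of the 7 encoded on the X chromosome alone, measured -3.59, -2.51, -2.66 and -2.56 at P0 and -1.77, -1.87, -3.07 and -3.20 at P10. The order of the arrays was P10 replicates 1 and 2 highest and P0 replicate 1 lowest. Its difference was 0.36 ± 0.42 (SE), with a limma adjusted p of 0.580.

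rno-miR-18a, whose known targets include the matrix protein CTGF, had the widest spread of the 7 within P10. It measured -5.33, -3.52, -3.62 and -3.52 at P0 and -2.09, -2.05, -4.43 and -4.45 at P10. The P10 arrays spanned 2.40 on the log2 scale and P0 replicates 2 to 4 only 0.10, and the ages overlapped. The mean was -4.0 ± 0.89 (SD, n = 4) at P0 and -3.26 ± 1.37 (SD, n = 4) at P10. The difference of 0.74 ± 0.70 (SE) had a limma adjusted p of 0.485 and a 95% interval from -0.84 to 2.33.

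The miR-19 group is known from mouse lymphoma as the part of the cluster that drives tumour growth. With the main processing it had the highest mean difference of the 4 groups, 0.80. The others were 0.74 for miR-18a, 0.40 for miR-92a and 0.29 for the miR-17/20 group. rno-miR-19a measured -5.69, -3.72, -3.92 and -3.76 at P0 and -2.30, -2.39, -4.26 and -4.16 at P10. Its P10 replicates 3 and 4 were below the P0 replicates 2 to 4, and its P10 replicates 1 and 2 above them. The difference was 1.00 ± 0.62 (SE), with a limma adjusted p of 0.305 and a 95% interval from -0.41 to 2.41. rno-miR-19b measured -1.14, -0.34, -0.45 and -0.34 at P0 and 0.63, 0.62, -0.62 and -0.52 at P10. Its P10 replicates 3 and 4 lay between P0 replicate 1 and the other P0 arrays. The difference was 0.60 ± 0.37 (SE), with a limma adjusted p of 0.305.

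rno-miR-92a, studied for its restraint of blood vessel growth, was the steadiest of the 7 at P0. It measured -1.0, -0.97, -0.88 and -0.90 at P0 and -0.13, -0.09, -0.93 and -1.03 at P10. Only P10 replicates 1 and 2 stood apart, while P10 replicate 3 lay within the range of the P0 arrays and replicate 4 just under it. Its mean was -0.94 ± 0.06 (SD, n = 4) at P0 and -0.54 ± 0.50 (SD, n = 4) at P10. The difference of 0.40 ± 0.27 (SE) had a limma adjusted p of 0.345 and a 95% interval from -0.23 to 1.02.

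Signal over background limited the reading of 4 of the 7 on 1 array. miR-19b, miR-20a and miR-92a were detected on all 8 arrays. miR-17-5p, miR-18a, miR-19a and miR-20b-5p were not well above background on P0 replicate 1, where their processed signals were 9.26, 2.87, 2.23 and 9.57, and were detected on the other 7. On that array the lowest detected probe was at -2.84, so the 4 values there lie under what it could detect. The second, dimmer probe of each miRNA gave a P10 minus P0 difference above 0 in 7 of 7 cases, from 0.27 for miR-17-5p to 0.89 for miR-19b. On P0 replicate 1, however, only the second probe of miR-20a was detected. Those of miR-17-5p, miR-18a and miR-19a were at the floor there (log2 -5.89), as was that of miR-18a on P10 replicates 3 and 4.

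The direction of the differences depended on which arrays were in the comparison. On P10 replicates 1 and 2, 7 of the 7 miRNAs were above every P0 value, a position that 69 of the 157 tested miRNAs (43.9%) also held. On P10 replicates 3 and 4, 6 of the 7 were below each of P0 replicates 2 to 4, the exception being miR-92a, and 88 of the 157 tested miRNAs (56.1%) were too. Both positions together were held by 6 of the 7 and by 30 of the 157 (19.1%). The median SD of the 7 within P10 was 0.76, against 0.45 over all tested miRNAs, and within P0 it was 0.51 against 0.38. Over P0 replicates 2 to 4 alone, the SDs of the 7 ran from 0.041 (miR-20a) to 0.11 (miR-19a). No such value was computed for all tested miRNAs.

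Without P0 replicate 1, the differences of miR-17-5p, miR-20a and miR-20b-5p were -0.24 ± 0.22, -0.092 ± 0.28 and -0.080 ± 0.26 (SE), the other 4 stayed above 0 and 0 of the 7 were called, while 42.5% of 167 tested miRNAs were. The median of the 7 was then 0.12, against -0.17 over all tested. Without P10 replicates 1 and 2, the differences ran from -0.44 ± 0.59 (SE, miR-18a) to 0.06 ± 0.63 (SE, miR-19a), only miR-19a was above 0, and 0 of the 7 were called against 8.28% of 169 tested. The median of the 7 was -0.30 and that of all tested -0.19.

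Without P10 replicates 3 and 4, all 7 differences were above 0 with a median of 1.00, against 0.39 over all tested miRNAs. miR-19b was then 1.18 ± 0.27 higher at P10 (SE, limma adjusted p = 0.019), miR-20a 0.95 ± 0.24 (adjusted p = 0.028) and miR-92a 0.81 ± 0.08 (adjusted p = 0.00079). These 3 of 7 passed the threshold against 45.5% of 167 tested miRNAs. In this reading the P10 group is 2 nearly identical arrays. With each P10 pair averaged to 1 sample, 0 of the 7 and 0 of the 157 tested miRNAs were called by limma, 26 of the 157 having an unadjusted p below 0.05.

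**Figure D2:**
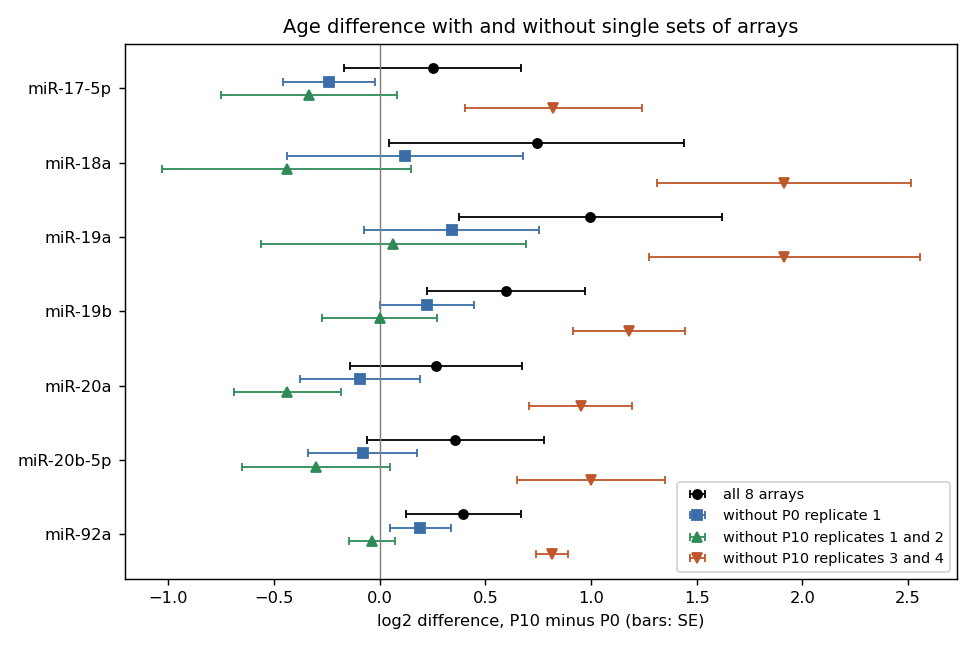
P10 minus P0 difference on the log2 scale (x axis) with its standard error for each miRNA, over all 8 arrays and with sets of arrays left out. Differences without P10 replicates 3 and 4 lie between 0.81 and 1.91, those without P10 replicates 1 and 2 between -0.44 and 0.06.

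A factor common to all probes of an array cancels in the ratio of 2 members on it, as long as neither is at the floor. Among the 3 miRNAs detected on all 8 arrays, miR-19b relative to miR-20a was 0.34, 0.48, 0.37 and 0.41 on the P0 arrays and 0.65, 0.60, 0.68 and 0.99 on the P10 arrays. All 4 P10 arrays were above all 4 P0 arrays. The mean log2 ratio was 0.40 ± 0.06 (SD, n = 4) at P0 and 0.73 ± 0.17 (SD, n = 4) at P10, a shift of 0.33. Only the shift is read here, since the ratio's own size depends on the probes. Without P0 replicate 1 the shift was 0.31. It was 0.44 without P10 replicates 1 and 2, and 0.23 without P10 replicates 3 and 4. Leaving out arrays cannot bring an overlap that all 8 arrays lack. Only the size of the shift is thus read from these sets. The second probes of both miRNAs gave 0.31 without P0 replicate 1, again without overlap.

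The other ratios of the detected members overlapped between the ages over all 8 arrays and changed with the arrays used. miR-92a relative to miR-20a shifted by 0.13, or by 0.28 without P0 replicate 1, 0.40 without P10 replicates 1 and 2 and -0.14 without P10 replicates 3 and 4. miR-92a relative to miR-19b shifted by -0.20, or by -0.030, -0.039 and -0.36 in the same order, the last without overlap. Over all arrays, 1 of the 3 ratios was without overlap, against 34.3% of the 2415 ratios between any 2 of the 70 miRNAs detected on all arrays. That share is near the background. No share was computed for the smaller sets of arrays, where a lack of overlap arises more easily.

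**Figure D3:**
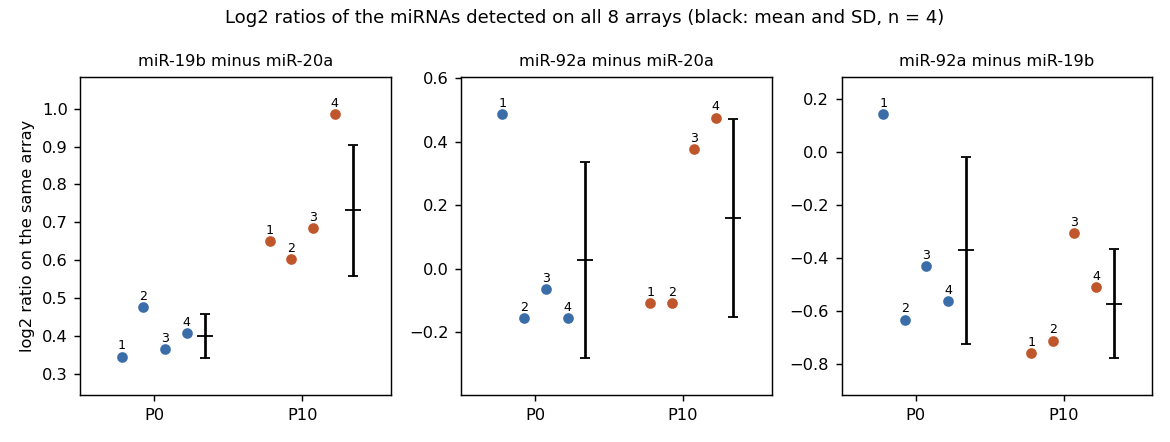
Log2 ratio on the same array (y axis, scale differs by panel) for each pair of the 3 miRNAs detected on all 8 arrays, by age; points are arrays labelled by replicate number, black marks the mean and SD (n = 4). Only the ratio of miR-19b to miR-20a has no overlap, with P0 arrays from 0.34 to 0.48 and P10 arrays from 0.60 to 0.99.

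By seed group, the miR-19 group relative to the miR-17/20 group was -0.51, -0.14, -0.20 and -0.14 on the P0 arrays and 0.37, 0.38, 0.03 and 0.25 on the P10 arrays. The ages did not overlap, and the shift was 0.51. It was 0.42 without P0 replicate 1, 0.39 without P10 replicates 1 and 2 and 0.62 without P10 replicates 3 and 4. No share without overlap was computed for ratios of group means. Among ratios of 2 single miRNAs detected on all 8 arrays, 34.3% were without overlap. Because miR-19a, miR-17-5p and miR-20b-5p were not detected on P0 replicate 1, the value there is less certain. The authors' deposited matrix gave a shift of -0.16, with the 3 undetected miRNAs set to -2.15 on that array. The miR-18 group shifted by 0.45 against the miR-17/20 group with overlapping ages, or by 0.25 without P0 replicate 1, -0.082 without P10 replicates 1 and 2 and 0.99 without P10 replicates 3 and 4. For the miR-92 group the shift was 0.10, also with overlap, or 0.33, 0.32 and -0.11 in the same order. The sign of both thus depended on the P10 pair used.

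Within the miR-17/20 group the shifts were smaller. miR-20b-5p relative to miR-20a shifted by 0.092 between the ages, or by 0.012 to 0.13 with P0 replicate 1 or a P10 pair left out, always with overlap. miR-20a relative to miR-17-5p shifted by 0.013, or by 0.15 without P0 replicate 1, -0.10 without P10 replicates 1 and 2 and 0.13 without P10 replicates 3 and 4. miR-20b-5p relative to miR-17-5p shifted by 0.11 with overlapping ages. Without P0 replicate 1, where neither was detected, its shift was 0.16 and the ages did not overlap. The shift was 0.033 without P10 replicates 1 and 2, and 0.18, without overlap, when P10 replicates 3 and 4 were left out. No share of ratios without overlap was computed for these smaller sets, so neither lack of overlap is set against a background. Across the 8 arrays, Pearson's r between members ran from 0.76 (miR-17-5p and miR-92a) to 0.99 (miR-18a and miR-20b-5p). These are descriptions over arrays that share their scaling and fall into sets, and related probes may share signal. Of the tested miRNAs outside the 7, those whose levels followed the mean of the 7 most closely over the 8 arrays were miR-21* (r = 0.98), miR-503 (0.98), miR-24 (0.97), miR-16 (0.97) and miR-140 (0.97).

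Relatives of the 7 were also on the array. The partner strands cut from the same hairpins, 10 in all, were detected on none of the 8 arrays. Of 6 paralogs with a shared seed or cluster, miR-363, miR-92b and miR-32 were detected on no array. The other 3 belong to the miR-106b-25 cluster, which in human and mouse lies in an intron of the replication gene Mcm7. miR-106b, with the seed of the miR-17/20 group, differed by -0.02 ± 0.25 (SE, limma adjusted p = 0.955) and miR-93, with the same seed, by -0.04 ± 0.31 (SE, adjusted p = 0.930). miR-25, with the seed of miR-92a, differed by 0.44 ± 0.28 (SE, adjusted p = 0.310). So 0 of 3 tested paralogs were called, in either direction. The 5 partner strands of these paralogs were detected on no array.

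Some of the marker lists, the mesenchymal and heart muscle lists among them, differed between the 2 P10 pairs. The summed scaled signal of the 7 miRNAs was 1.52, 2.41, 2.33 and 2.44 on the P0 arrays and 4.47, 4.47, 1.92 and 1.87 on the P10 arrays. For the 3 mesenchymal miRNAs, miR-199a-3p, miR-199a-5p and miR-214, which are typical of fibroblasts, the sum was 0.116 to 0.180 at P0, 2.62 and 2.69 on P10 replicates 1 and 2, and 0.264 and 0.244 on P10 replicates 3 and 4. The list of 6 heart muscle miRNAs went the other way, with 10.1 and 9.27 on P10 replicates 1 and 2, 19.9 and 20.7 on P10 replicates 3 and 4, and 11.7 to 17.1 at P0. Both lists thus separated the 2 P10 pairs, as the 7 miRNAs did. So did the paralogs and the endothelial, smooth muscle and leukocyte lists. No share of tested miRNAs that separate the pairs was computed, so this is not particular to any list.

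The endothelial miR-126 was detected on 3 P0 and 4 P10 arrays. It was at the floor (0.0169) on P0 replicate 1, 0.0541 to 0.0609 on the other P0 arrays and 0.149 to 0.247 at P10. All 4 P10 arrays were above all P0 arrays, and 26.1% of the tested miRNAs had no overlap in either direction. Summed smooth muscle signal (miR-143 and miR-145) was 1.37 to 2.17 at P0. At P10 it was 0.901 and 0.852 on replicates 1 and 2, and 1.11 and 1.17 on replicates 3 and 4. The 5 leukocyte miRNAs summed to 0.0895 to 0.255 at P0 and 0.105 to 0.242 at P10, highest on P0 replicate 1 and P10 replicates 1 and 2. Of the erythroid pair, miR-451 was detected on 3 P0 and 2 P10 arrays and the pair summed to at most 0.0504, while the 2 neural, 5 epithelial and 1 liver miRNAs were detected on no array. The part of these cell types, and of the dimness of P0 replicate 1, in the levels of the 7 miRNAs was not tested.

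**Figure D4:**
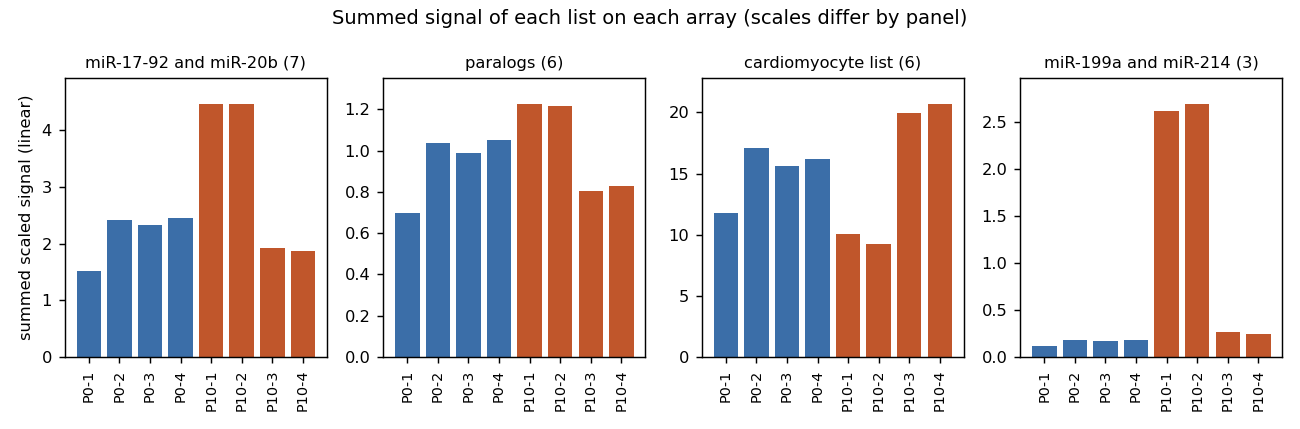
Summed scaled signal on a linear axis (y axis, scale differs by panel) of the 7 miRNAs, their 6 paralogs, 6 heart muscle miRNAs and 3 mesenchymal miRNAs on each array; bars are single arrays, blue for P0 and orange for P10. P10 replicates 1 and 2 are highest for the 7 miRNAs (4.47 on both) and the mesenchymal list (2.62 and 2.69) and lowest for the heart muscle list (10.1 and 9.27).

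The authors' deposited normalized matrix, on a log2 scale of its own, also had P10 replicates 1 and 2 highest for miR-19b and miR-92a, but did not place P10 replicates 3 and 4 below the P0 arrays for either. In the authors' deposited table miR-19b was 8.03, 8.84, 8.57 and 8.76 on the P0 arrays and 9.52, 9.52, 8.84 and 8.92 on the P10 arrays. For miR-92a the authors' deposited table gave 8.18, 8.31, 8.22 and 8.22 at P0 and 8.48, 8.66, 8.35 and 8.41 at P10. Here the ages did not overlap, with the highest P0 value at 8.31 and the lowest P10 value at 8.35. No share of miRNAs without overlap was computed for that table, so this is not set against a background. For miR-17-5p, miR-18a, miR-19a, miR-20a and miR-20b-5p the same table did place P10 replicates 3 and 4 below each of P0 replicates 2 to 4. On those P10 arrays miR-20a, for example, was 8.57 and 8.35, against 8.69, 8.69 and 8.81 on those P0 arrays. A limma fit to that table called 0 of the 7 and 2 of 155 matched miRNAs.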

How the data were processed

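Per the file headers, the deposited scanner files hold spot intensities written by Agilent Feature Extraction 10.7.1.1, background-subtracted and not scaled between arrays. The deposited matrix holds log2 values, normalized in a way that the sources used here do not give. Members and lists were chosen with earlier results of these data known. Spots marked as outliers were dropped, and the remaining spots averaged per probe. For scaling, signals were divided by the array's 75th percentile of the 111 probes that all 8 arrays detected, raised to a floor of 0.0169 (log2 -5.89) and turned into log2. A probe counted as detected with at least 0.5 of its spots well above background, the brightest probe on average represented its miRNA, and a miRNA was tested when detected on all 4 arrays of an age. limma 3.58.1 (R 4.3.3) was run over the 157 tested miRNAs with Benjamini-Hochberg adjustment and tested on simulated data. Named were the 7 miRNAs, their fixed relatives, the marker lists and the 5 tested miRNAs most like their mean. Deviations of same-numbered P0 and P10 arrays correlated between -0.15 and 0.16. So few correlations cannot exclude that replicate numbers pair samples, and the main fit did not pair them. No miRNA spot was saturated. The number of arrays limits the precision.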

Additional observations from a re-analysis of the deposited data

Results flagged for a closer look

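Of 14 groups of 4 arrays examined for an array far from the others (7 miRNAs at each age), 6 held one, and in each it was P0 replicate 1. Its log2 level was -3.64 for miR-17-5p, -5.33 for miR-18a, -5.69 for miR-19a, -1.14 for miR-19b, -1.49 for miR-20a and -3.59 for miR-20b-5p, the lowest of the P0 arrays each time. For miR-92a, the same array was at -1.0, close to the other P0 arrays. Chance marks about 5% of such groups, and the 6 are values of 1 array, so they are not independent.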

How the results depend on the processing

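The count of called miRNAs, 14, was 16 with quantile or median scaling, 10 without scaling (10 higher and 0 lower, against 7 and 7), 20 with a doubled floor and 12 among miRNAs detected on all arrays. It was 4 with no floor, 8 with the mean of all probes, 3 (3 higher) with total signal, 4 with no filter, 2 with the authors' matrix and 0 with normexp (22 with an unadjusted p below 0.05). Leaving out 1 array gave 4 to 71, P10 replicates 3 and 4 gave 76, and averaged P10 pairs 0, or 33 with P0 replicate 1 also out, a setting chosen after seeing the data. With the replicate block 4 were called, 0 of the 7 among them. The median of all tested, 0.03, was -0.12 with quantile scaling, 0.35 without scaling, 0.075 with total signal, -0.25 with normexp and 0.44 in the authors' matrix, and that of the 7 miRNAs, 0.40, was 0.43, 0.79, 0.75, 0.018 and 2.02. The 2.02 is the value of miR-18a, which stood at -2.15 on P0 replicate 1 and at 4.94 to 5.62 on the other P0 arrays. In the authors' matrix miR-17-5p, miR-19a and miR-20b-5p also stood at -2.15 on that array. Those not set so, miR-19b, miR-20a and miR-92a, differed by 0.65, 0.29 and 0.24 in it. Leave-out values of ratios between 2 members were added after seeing the data. With normexp, miR-17-5p was -0.20, miR-18a -0.070 and miR-20b-5p -0.11. Leaving out 1 array gave -0.24 to 0.44 for miR-17-5p, -0.092 to 0.52 for miR-20a and -0.080 to 0.58 for miR-20b-5p, the lowest each time without P0 replicate 1 and the same with P10 pairs also averaged. Without P10 replicates 1 and 2, miR-17-5p was -0.33, miR-18a -0.44, miR-19b -0.00032, miR-20a -0.44, miR-20b-5p -0.30 and miR-92a -0.039. Without P10 replicates 3 and 4, miR-19b (1.18), miR-20a (0.95) and miR-92a (0.81) passed the threshold, and no member did in any other setting. The miR-19 against miR-17/20 shift was 0.27 without scaling, 0.30 with normexp, 0.18 with total signal and -0.16 in the authors' matrix, and the miR-92 shift -0.44 and -1.36 in the last 2. Both shifts in the authors' matrix include P0 replicate 1. There miR-17-5p and miR-20b-5p of the miR-17/20 group stood at -2.15, against 6.75 to 6.97 on the other P0 arrays. These 2 shifts are therefore not read as a change with age. The causes were not tested. Scaling by the 75th percentile over all probes could not be fitted, since it was not above 0 on every array.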
